A study of Mus musculus with 8 samples.

Results

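The genes followed here are 10 of the Notch pathway, measured in Min6 cells that had received Zac1: the receptors Notch1, Notch2, Notch3 and Notch4, the ligands Jag1, Jag2, Dll1 and Dll4, the ubiquitin ligase Dtx1 and the target gene Hes1. They were taken by symbol from a table of 23100 genes, and all 10 were found and tested. Min6 is a line from a mouse insulinoma that keeps many traits of beta cells, and Zac1, a transcription factor with zinc fingers, is the product of Plagl1. The Zac1 group was transfected with pRK5-Zac1 and the control group with pRK5-NLSeGFP, which encodes a green fluorescent protein directed to the nucleus. Both used Lipofectamine, and RNA was taken 16 h later. Each group held 4 libraries, numbered 1, 2, 3 and 5. The series calls them biological replicates, but no label ties a library to a separate culture, so the p-values measure the spread between these libraries. Transfection is transient, so transfected and untransfected cells of a dish were measured together, and a change in each cell cannot be told apart from a change in a part of the cells.

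Notch receptors are single-pass membrane proteins that bind ligands of the Jagged and Delta-like families on a neighbouring cell. Binding lets ADAM proteases and then gamma-secretase cut the receptor, and the freed intracellular part enters the nucleus, joins the DNA-binding protein Rbpj and a Mastermind coactivator, and turns on targets such as Hes1. Deltex proteins, Dtx1 among them, are ubiquitin ligases that bind this intracellular part. In the developing pancreas the pathway is known for holding progenitors back from the endocrine fate, with Hes1 repressing the endocrine regulator Neurog3.

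Among the 10 members 3 rose with Zac1: the receptor Notch4 (3.11-fold), the ligand Jag1 (2.26-fold) and Dtx1 (2.44-fold). No member fell. The groups did not overlap in these 3 members, against 4.39% of all tested genes whose Zac1 libraries all lay above the controls and 1.4% whose Zac1 libraries all lay below. The other 7 did not pass the test, among them the most abundant receptor Notch1 and the target Hes1. Over all 14331 tested genes 2.15% were called higher and 0.0349% lower, where a call is a Benjamini-Hochberg adjusted p under 0.05 in edgeR. The median log2 fold change (Zac1 minus control) was 0.20 over the 10 members and -0.0090 over all tested genes, without matching for level. The members were chosen with earlier results of these data known, so neither their calls nor their median test the list. The calls fell at low levels: 2 of the 3 members with a control mean under 1 CPM (counts in each M, or mega, of the library's counts) were called, 1 of the 3 between 1 and 10 CPM, and 0 of the 4 above 10 CPM. Over all tested genes the shares called higher in these ranges were 11.5%, 2.24% and 0.302%. All 10 members were above the low-count filter in each of the 8 libraries, so none was tested only because it was high with Zac1.

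The start-site regions of the 3 members that rose are shown with that of Jag2, the paralog of Jag1 that did not pass the test. They are RefSeq sequences of the mouse build GRCm38.p6, 250 bases before to 50 after the annotated start, written 5′ to 3′ on the strand of the gene. The deposited counts were made on the build mm9 and carry no coordinates. Notch4 lies on the plus strand at chr17:34564045-34564344, Jag1 on the minus strand at chr2:137116471-137116770, Dtx1 on the minus strand at chr5:120711620-120711919 and Jag2 on the minus strand at chr12:112929446-112929745. Capitals mark CpG dinucleotides.
Notch4 promoter: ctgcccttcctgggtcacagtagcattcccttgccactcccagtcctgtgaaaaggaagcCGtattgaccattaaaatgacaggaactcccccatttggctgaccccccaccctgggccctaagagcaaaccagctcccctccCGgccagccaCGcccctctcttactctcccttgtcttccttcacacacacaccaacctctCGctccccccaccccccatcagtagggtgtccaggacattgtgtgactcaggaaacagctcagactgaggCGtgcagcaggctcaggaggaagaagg
Jag1 promoter: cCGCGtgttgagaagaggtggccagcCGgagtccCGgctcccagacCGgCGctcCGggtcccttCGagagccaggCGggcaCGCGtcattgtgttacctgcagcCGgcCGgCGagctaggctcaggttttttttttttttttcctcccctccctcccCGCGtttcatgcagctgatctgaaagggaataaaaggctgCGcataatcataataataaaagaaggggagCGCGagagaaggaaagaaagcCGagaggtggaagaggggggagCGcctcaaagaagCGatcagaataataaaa
Dtx1 promoter: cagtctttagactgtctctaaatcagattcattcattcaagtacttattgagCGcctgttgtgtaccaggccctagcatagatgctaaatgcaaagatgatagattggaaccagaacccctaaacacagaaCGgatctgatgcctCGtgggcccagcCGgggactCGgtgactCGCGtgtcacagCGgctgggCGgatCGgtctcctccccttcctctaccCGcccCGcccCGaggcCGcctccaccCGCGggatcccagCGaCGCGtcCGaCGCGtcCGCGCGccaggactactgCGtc
Jag2 promoter: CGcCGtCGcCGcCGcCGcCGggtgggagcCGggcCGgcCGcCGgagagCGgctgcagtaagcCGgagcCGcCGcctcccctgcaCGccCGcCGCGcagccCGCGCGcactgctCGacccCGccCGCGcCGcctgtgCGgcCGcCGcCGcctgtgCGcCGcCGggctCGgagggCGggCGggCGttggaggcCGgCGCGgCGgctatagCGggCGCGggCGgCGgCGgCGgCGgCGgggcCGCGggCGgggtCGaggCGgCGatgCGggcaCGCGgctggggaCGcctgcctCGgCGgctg

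These 4 windows differ widely in composition. That of Notch4 holds 5 CpG dinucleotides at 58.3% GC, that of Jag1 22 at 55.7%, that of Dtx1 26 at 59.3% and that of Jag2 63 at 86% GC. Across 32851 windows of this length the median was 7 CpG and 52.7% GC. A window was matched for 9 members, all but Hes1, with a pair of them for Dll1. The windows not shown held 23 CpG (Notch1), 41 (Notch2), 25 (Notch3), 24 and 15 (Dll1) and 17 (Dll4). Jag2 thus had the most of all, and it does not stand for the members that did not pass the test. The 8-base sequence GGGGCCCC, the core of a GC-rich site that Zac1 has been reported to bind in vitro, was in 0 of the members' 10 windows and in 1.08% of all windows. TGGGAA, the core of the Rbpj site, was likewise in 0 of 10, against 25.6% of all windows. Both strands were searched, and these motifs do not overlap one another. The result covers only these letters in these windows.

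The libraries held 34.7, 35, 32.4 and 30.5 M counts in the control group and 41.6, 34.7, 41.2 and 42.4 M in the Zac1 group, in the order of replicates 1, 2, 3 and 5 that is kept below. Plagl1, the transfected gene, ranged over 67.7 to 85.4 CPM without and 4117 to 5786 CPM with the Zac1 plasmid (log2 fold change 5.90 ± 0.13, SE; edgeR adjusted p = 1.45e-09), and plasmid and endogenous reads are counted together. The libraries numbered 5 lay farthest from the rest of their groups. Over 12615 genes their root mean square distance was 0.218 (control) and 0.249 (Zac1) on the log2 scale, against 0.149 to 0.19 for the others. Where the call of a member changes without them, both values are given. The 11 beta cell markers summed to 57910 to 74280 CPM in controls and 60370 to 67600 CPM with Zac1.

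Per length, Notch1 was the main receptor and Jag2 and Dll1 were the main ligands in control cells. Dividing CPM by the exonic length in kilobases (GENCODE M21), Hes1 stood at 8.55 ± 0.733 CPM per kb (SD, n = 4 here and below) and Notch1 at 8.38 ± 0.265, and their libraries overlapped. Jag2 followed at 4.38 ± 0.747 CPM per kb and Dll1 at 2.95 ± 0.373, and neither overlapped its neighbours in the order. Jag1 (0.419 ± 0.0693 CPM per kb) and Dll4 (0.342 ± 0.0767) were lower by a wide step and overlapped each other. The lowest levels per kb were those of Dtx1 (0.173 ± 0.0554), Notch2 (0.107 ± 0.0117), Notch3 (0.0914 ± 0.0168) and Notch4 (0.0566 ± 0.00643). Dtx1, Notch2 and Notch3 overlapped their neighbours among these, while Notch4 lay below all libraries of Notch3.

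**Figure D1:**
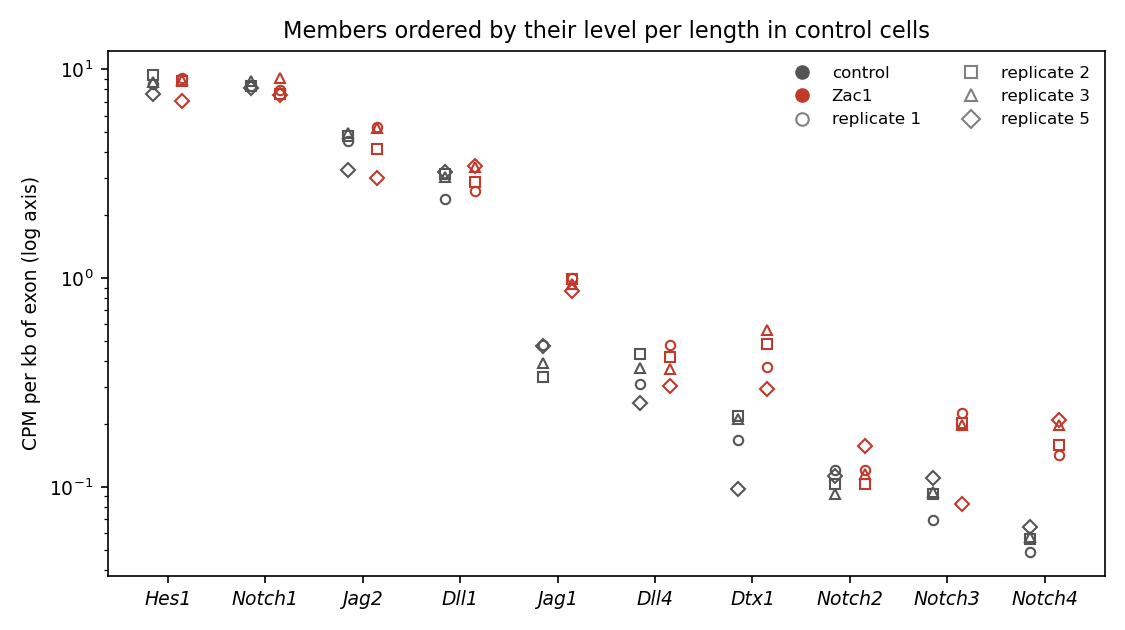
Level of each member per kilobase of exon (vertical log axis, CPM per kb) in the 4 control (grey) and 4 Zac1 (red) libraries, ordered by the control mean; symbols mark the replicate number. Hes1, Notch1, Jag2 and Dll1 stay above 2.4 CPM per kb in every library, and the other 6 members stay below 1.

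The make-up of each class differed slightly with Zac1. Notch1 held 96.6% to 97.3% of the summed per-kb level of the 4 receptors in controls and 94.2% to 94.7% with Zac1. Notch4 held 0.573% to 0.766% of that sum in controls and 1.67% to 2.62% with Zac1. Among the 4 ligands, Jag1 held 3.85% to 6.54% of the per-kb sum in control libraries and 9.46% to 11.7% with Zac1. The sums themselves overlapped between the groups, at 8.42 to 9.0 against 7.94 to 9.55 CPM per kb for the receptors and 7.23 to 8.76 against 7.62 to 9.94 for the ligands.

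**Figure D2:**
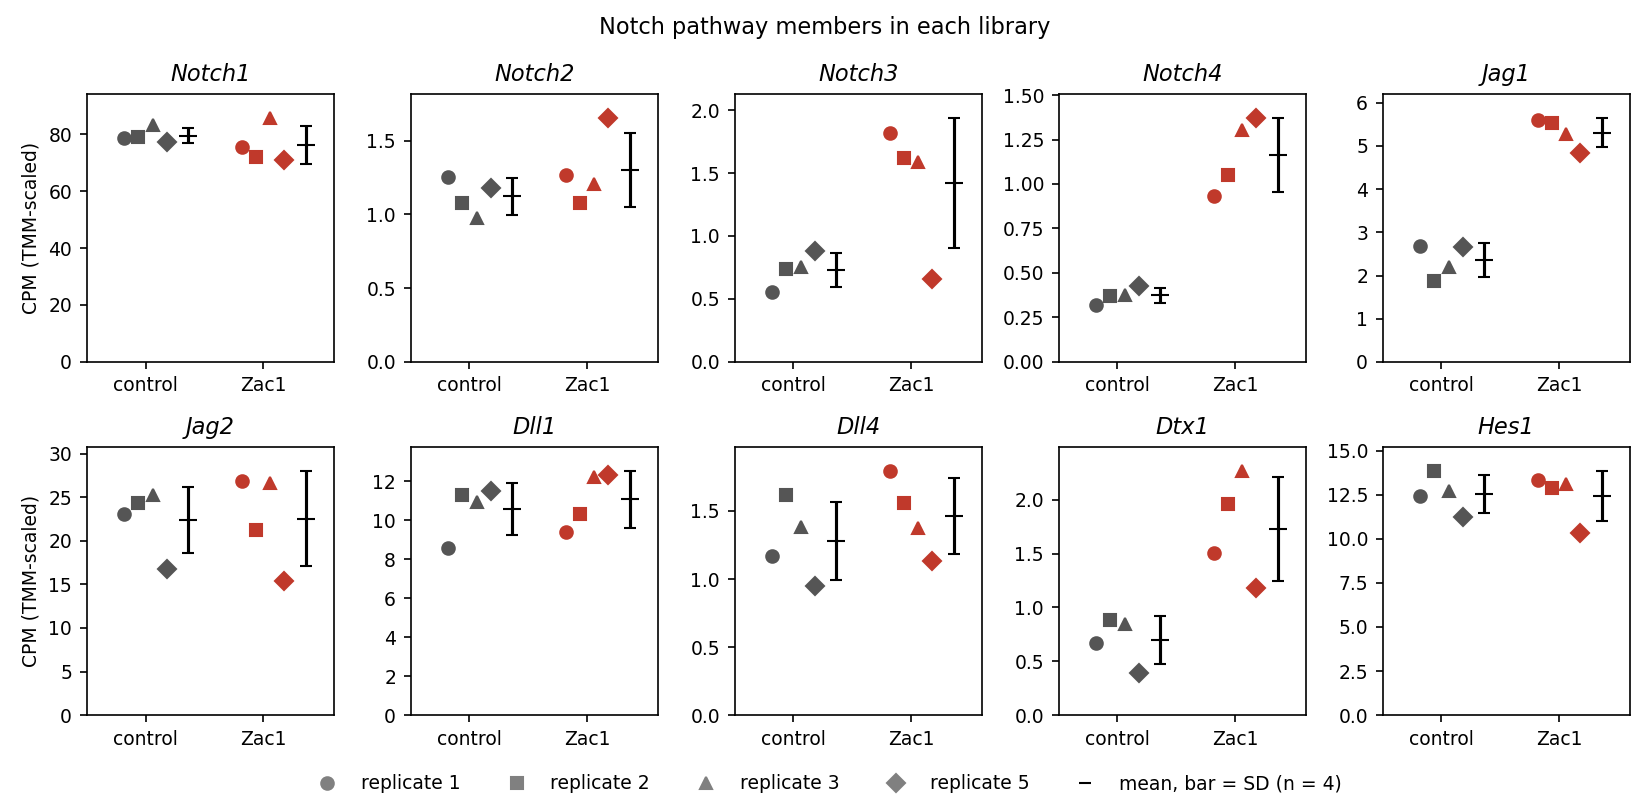
TMM-scaled CPM (vertical axes, each from 0) of the 10 members in the 4 control (grey) and 4 Zac1 (red) libraries, with symbols for the replicate number and the mean ± SD of each group in black. Notch4, Jag1 and Dtx1 have no overlap between the groups, and Notch3 has 1 Zac1 library, replicate 5, at 0.662 CPM among the control values.

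Notch4 (gene ID 18132), a receptor best known from the endothelium, rose. Its control libraries held 0.322, 0.369, 0.377 and 0.425 CPM (11 to 13 counts each). The Zac1 libraries held 0.932, 1.05, 1.30 and 1.37 CPM (37 to 58 counts). The lowest Zac1 value was 2.19 times the highest control value. The log2 fold change was 1.64 ± 0.24 (SE; 95% interval 1.13 to 2.15; edgeR adjusted p = 0.000757), the largest of the 10 members. It kept its call in all 15 alternatives in which it was tested, at log2 1.56 to 1.73 (adjusted p 4.16e-05 to 0.00504). The annotation places a pseudogene, Gm20462, on the opposite strand within Notch4, and the strand setting of the counting is not given in the sources used here, so its reads are uncertain to that extent.

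Because Notch4 is an endothelial gene, markers of endothelium were examined beside it. Of 8 markers, Cdh5 and Cldn5 had 0 counts in all 8 libraries, where 3 counts would be 0.0707 to 0.0982 CPM, and Kdr, Tek, Emcn and Tie1 had group means under 0.5 CPM. Pecam1 and Esam, the only ones tested, were not called. The list summed to 13.4 to 16.4 CPM in control libraries and 14.1 to 15.7 CPM with Zac1, most of it from Esam, an adhesion molecule (12.9 ± 1.41 against 13.1 ± 1.18 CPM).

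Notch3, the receptor of smooth muscle and pericytes, did not pass the test in the fit on group alone. The control values were 0.556, 0.739, 0.754 and 0.883 CPM, and the Zac1 values 1.82, 1.62, 1.59 and 0.662 CPM. Zac1 replicates 1, 2 and 3 lay above all controls, and Zac1 replicate 5 lay within them. The log2 fold change was 0.95 ± 0.29 (95% interval 0.33 to 1.58; edgeR adjusted p = 0.178). Without Zac1 replicate 5 it was 1.20 (adjusted p = 0.00247), and without both libraries numbered 5 it was 1.30 (adjusted p = 0.00243), which brought the members called to 4. With all libraries and replicate number as a block in the fit, it was 0.93 and passed (edgeR adjusted p = 0.0391). The numbers were not taken as pairs, as described in the last section. The 28 counts of Notch3 in Zac1 replicate 5 stand against 57 to 76 in the other Zac1 libraries, although that library was the deepest.

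Markers of mesenchymal and mural cells were examined beside Notch3. The 8 genes added up to 1.02 to 1.41 CPM in control libraries and 1.92 to 2.49 CPM in Zac1 libraries, without overlap. One of them, the collagen chain Col1a1, was called (0.334 ± 0.0517 against 1.04 ± 0.337 CPM), and without it the sums of the other 7 overlapped, at 0.643 to 1.11 against 1.06 to 1.37 CPM. Col1a2, the only other one tested, stood at 0.698 ± 0.165 against 0.734 ± 0.113 CPM (log2 0.088 ± 0.24; edgeR adjusted p = 0.983), and Pdgfra, Pdgfrb, Rgs5, Cspg4, Col3a1 and Dcn had group means under 0.5 CPM. At these few counts, Pdgfra had 1, 3, 1 and 1 in controls and 4 in each Zac1 library, without overlap. Pdgfrb, Rgs5, Cspg4 and Dcn overlapped between the groups but had higher means with Zac1, and Col3a1 had a lower one. The part of these markers in the Notch values was not tested.

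Notch1 and Notch2 did not pass the test. Notch1, the most abundant member by CPM, stood at 78.6, 79.2, 83.1 and 77.2 CPM in control cells and 75.5, 72.0, 85.7 and 71.1 CPM with Zac1. Its log2 fold change of -0.064 ± 0.060 (95% interval -0.19 to 0.064; edgeR adjusted p = 0.938) leaves room for a fold between 0.876 and 1.05. Notch2, a receptor whose human gene, like JAG1, can be mutated in Alagille syndrome, had 1.26, 1.08, 0.973 and 1.18 CPM in controls and 1.27, 1.08, 1.20 and 1.66 CPM with Zac1. The groups overlapped (log2 0.22 ± 0.19; edgeR adjusted p = 0.934). At 31 to 70 counts per library the 95% interval for Notch2 still reached from 0.872-fold to 1.55-fold, so folds within that range remain compatible with the values. The smallest detectable change was not computed.

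Jag1 (gene ID 16449) was the ligand that rose, and the most precisely measured of the 3 called members. Control libraries held 2.69, 1.88, 2.2 and 2.65 CPM (66 to 92 counts). Zac1 libraries held 5.59, 5.53, 5.28 and 4.85 CPM (195 to 234 counts). Here the lowest Zac1 library was 1.8 times the highest control. The log2 fold change was 1.18 ± 0.13 (95% interval 0.89 to 1.46; edgeR adjusted p = 9.25e-05), and it stayed between 1.08 and 1.28 in all 16 alternatives, each with a call.

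Its paralog Jag2 varied between libraries more than between groups. Jag2 stood at 23.1, 24.3, 25.3 and 16.8 CPM in controls and at 26.9, 21.2, 26.7 and 15.3 CPM with Zac1. The library numbered 5 was the lowest of each group. The variation among Zac1 libraries was 55.3 times that of counting alone (chi-square per degree of freedom, which grows with the counts), and the coefficient of variation was 24.2%, against 6.38% for Jag1. The log2 fold change of Jag2 was 0.0083 ± 0.20 (95% interval -0.44 to 0.46; edgeR adjusted p = 0.998).

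The Delta-like ligands did not pass the test either. Dll1 was at 8.60, 11.3, 10.9 and 11.5 CPM in controls and at 9.39, 10.3, 12.2 and 12.3 CPM with Zac1 (log2 0.067 ± 0.11, 95% interval -0.17 to 0.31; edgeR adjusted p = 0.967). Dll4, like Notch4 known from blood vessels, was at 1.17, 1.62, 1.38 and 0.949 CPM in controls and at 1.79, 1.56, 1.37 and 1.13 CPM with Zac1 (log2 0.19 ± 0.21, 95% interval -0.26 to 0.63; edgeR adjusted p = 0.954). Both pairs of groups overlapped. Transcripts on the opposite strand overlap Notch1, Notch3, Dll1 and Dll4 in the annotation too, and the only one of them listed in the table, Gm14207 within Dll4, had at most 0.239 CPM in any library.

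The ratio of 1 member's counts to another's within a library does not depend on how libraries are scaled. It was compared between the groups for the 12 pairs within receptors and within ligands, a comparison added after the values were seen, by a two-sided exact permutation test over 70 assignments. Jag1 reads per Jag2 read were 0.116, 0.0771, 0.087 and 0.158 in control libraries and 0.208, 0.261, 0.198 and 0.316 in Zac1 libraries, a mean log2 shift of 1.20 without overlap. Jag1 against Dll1 and against Dll4 shifted by 1.12 and 0.98, also without overlap. Notch1 reads per Notch4 read were 182 to 244 in controls and 51.8 to 81 with Zac1, and Notch2 per Notch4 read 2.58 to 3.91 and 0.926 to 1.36. These 5 pairs gave an exact p = 0.0286, the smallest that 4 against 4 libraries allows, which became 0.0686 after Benjamini-Hochberg adjustment over the 12 pairs. No pair therefore passed the threshold after adjustment, and 4 against 4 libraries left little room for one to pass. Each of the 5 pairs holds Jag1 or Notch4, so they are not evidence apart from the calls of those genes. Jag2 against Dll1 shifted by -0.074 (exact p = 0.83).

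**Figure D3:**
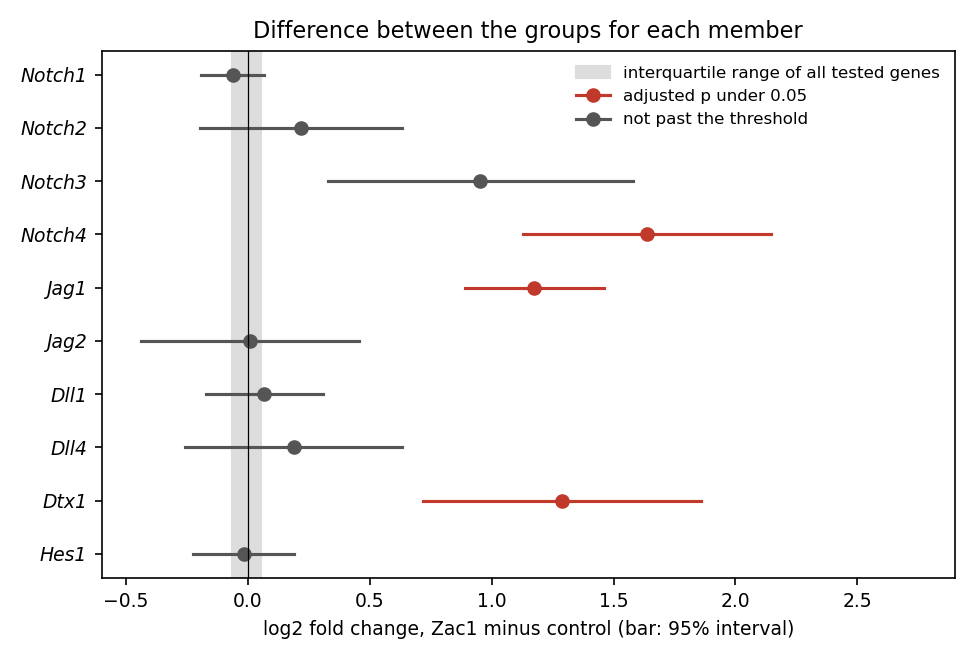
Log2 fold change, Zac1 minus control, of each member (horizontal axis) with its 95% interval from the edgeR fit, red where the adjusted p was under 0.05; the grey band spans the interquartile range of all tested genes, -0.065 to 0.054. The intervals of Notch4, Jag1 and Dtx1 start at 1.13, 0.89 and 0.72, while those of Notch1, Notch2, Jag2, Dll1, Dll4 and Hes1 include 0.

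Dtx1 (gene ID 14357), the Deltex ubiquitin ligase, rose from a low level. Control libraries held 0.673, 0.881, 0.848 and 0.393 CPM (12 to 31 counts), and Zac1 libraries 1.51, 1.96, 2.26 and 1.18 CPM (50 to 94 counts). The groups did not overlap, and replicate 5 was the lowest in each. The log2 fold change was 1.29 ± 0.27 (95% interval 0.72 to 1.86; edgeR adjusted p = 0.0150). It lost its call without Zac1 replicate 2 (log2 1.23, adjusted p = 0.0576) or Zac1 replicate 3 (1.13, adjusted p = 0.0616). Without both libraries numbered 5 the value was 1.26 (adjusted p = 0.00371).

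Hes1, the basic helix-loop-helix repressor induced by active Notch, did not differ beyond its spread. It stood at 12.4, 13.8, 12.7 and 11.2 CPM in controls and at 13.3, 12.9, 13.1 and 10.3 CPM with Zac1. Replicate 5 was again the lowest of each group. The log2 fold change was -0.018 ± 0.096 (95% interval -0.22 to 0.19; edgeR adjusted p = 0.989), an interval of 0.856-fold to 1.14-fold. With 343 to 558 counts per library, the spread between libraries was 3.01 (control) and 6.74 (Zac1) times that of counting alone (chi-square per degree of freedom).

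The rest of the pathway was read from a list of 76 further genes, chosen with earlier results of these data known, of which 67 were tested. In edgeR 0 of the 67 were called, against 2.18% of all tested genes in either direction, and the median log2 fold change was 0.0024. Before adjustment 6 (8.96%) had a higher and 1 (1.49%) a lower value at p under 0.05, against 5.65% and 1.93% of all tested genes. DESeq2 and limma-voom each called 1 higher, Ccnd1, which passed the filter only through the Zac1 libraries, where it is high. Of the 67, 89.6% lay within 0.2 of 0 on the log2 scale, against 85.3% of all tested genes. The Zac1 libraries all lay above the controls in 4 of the 67 and all below in 1. Over all tested genes these shares were 4.39% and 1.4%.

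The machinery that cuts the receptor ranged from Aph1c, a gamma-secretase subunit at 3.48 ± 0.651 CPM in controls, to Ncstn, and gave small differences. All 10 proteases and gamma-secretase subunits were tested, and their log2 fold changes ran from -0.029 to 0.096. Ncstn (nicastrin, a gamma-secretase subunit) stood at 207 ± 4.52 CPM in control and 207 ± 9.02 CPM in Zac1 libraries, and Adam10, the protease that makes the first cut after ligand binding, at 132 ± 5.38 and 134 ± 5.63 CPM. The 12 genes of ligand and receptor trafficking, which include the ubiquitin ligases Itch and Dtx3, a relative of Dtx1, ran from -0.14 to 0.18. Neurl1b, a ubiquitin ligase of Notch ligands, was chosen after its values were seen (74.3 ± 1.89 CPM with Zac1 against 80.0 ± 1.95 CPM in controls, log2 -0.11 ± 0.045, edgeR adjusted p = 0.544). It was the 1 of 67 tested pathway genes whose Zac1 libraries all lay below the controls, against 1.4% of all tested genes. Dtx3 stood at 137 ± 12.3 against 131 ± 10.9 CPM and Itch at 105 ± 6.35 against 103 ± 7.39 CPM.

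Differences were small for the nuclear partners of the cut receptor as well. The 9 tested genes of the nuclear complex ran from -0.099 to 0.062. Rbpj, which is outside the naming rule and was chosen after its values were seen, stood at 55.1 ± 3.32 CPM in controls and 54.3 ± 2.98 CPM with Zac1. The acetyltransferase Ep300 was at 168 ± 9.18 against 171 ± 7.95 CPM and Snw1, an adaptor of the complex, at 128 ± 3.49 against 128 ± 6.96 CPM. The 12 corepressors ran from -0.11 to 0.23, with Ncor1 at 432 ± 25.3 against 431 ± 13.3 CPM and the deacetylase Hdac1 at 221 ± 5.49 against 219 ± 9.02 CPM.

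Among other Hes and Hey family genes and listed Notch targets, 0 of 9 tested genes were called in edgeR. Hes6, at 12.2 ± 1.90 against 12.3 ± 0.432 CPM, and Hey1, at 10.1 ± 1.59 against 10.1 ± 1.77 CPM, were the most abundant. Higher values at p under 0.05 before adjustment were found for 2 targets at very low level, which the naming rule does not cover and which were picked after seeing them. Ccnd1 (cyclin D1) had 3, 2, 8 and 0 counts in control libraries and 20, 12, 14 and 31 with Zac1 (log2 2.23 ± 0.55; edgeR adjusted p = 0.0541, and 0.0127 to 0.196 over its 15 alternatives). The log2 value was 3.18 without control replicate 3 (adjusted p = 0.0162) and 1.57 without both libraries numbered 5 (adjusted p = 0.186). DESeq2 (adjusted p = 0.0212) and limma-voom (adjusted p = 0.0464) called it. It was above the filter in the Zac1 libraries only, so these values describe a gene that entered the test through the group where it is high. Hes7 had 15, 12, 8 and 7 counts against 29, 22, 32 and 22 (log2 1.03 ± 0.29; edgeR adjusted p = 0.103), and it too passed the filter through the Zac1 group, with 2 of 4 control libraries above it.

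Of the genes that sugar-coat the receptor, 5 of 5 were tested and 0 called. The fringe enzyme Mfng, outside the naming rule and chosen after its values were seen, stood at 1.73, 2.16, 2.32 and 1.28 CPM in controls and at 2.53, 2.75, 3.69 and 2.72 CPM with Zac1, without overlap (log2 0.64 ± 0.19; edgeR adjusted p = 0.152). Poglut1 was at 42.6 ± 1.48 against 43.0 ± 2.11 CPM and Pofut1 at 38.6 ± 1.19 against 40.9 ± 1.44 CPM. Among 5 tested noncanonical and other ligands the microfibril protein Mfap2, also chosen after its values were seen, had 7, 7, 11 and 14 counts in controls and 33, 21, 39 and 24 with Zac1 (log2 1.28 ± 0.32; edgeR adjusted p = 0.0544, and 0.0131 to 0.207 over its 15 alternatives). It was called without control replicate 5 (adjusted p = 0.0301), without Zac1 replicate 5 (0.0303) and without both (log2 1.65, adjusted p = 0.0131). With 2 of 4 control libraries above the filter, it was tested through the Zac1 group where it is high. Cntn1, a contactin, was at 111 ± 8.60 against 103 ± 5.35 CPM and Dner at 59.1 ± 5.14 against 59.1 ± 2.05 CPM.

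The endocrine regulators that act downstream of Notch in the developing pancreas gave 0 calls in edgeR among 5 tested genes, 0 also at an unadjusted p under 0.05, with log2 fold changes of -0.10 to 0.013. Neurod1 stood at 174 ± 6.03 against 165 ± 7.48 CPM and Insm1 at 104 ± 8.74 against 96.6 ± 9.39 CPM. Neurog3, the gene that Hes1 represses, was chosen after its values were seen. No control library had a count of it, and the Zac1 libraries had 4, 0, 5 and 0, too few to be tested.

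**Figure D4:**
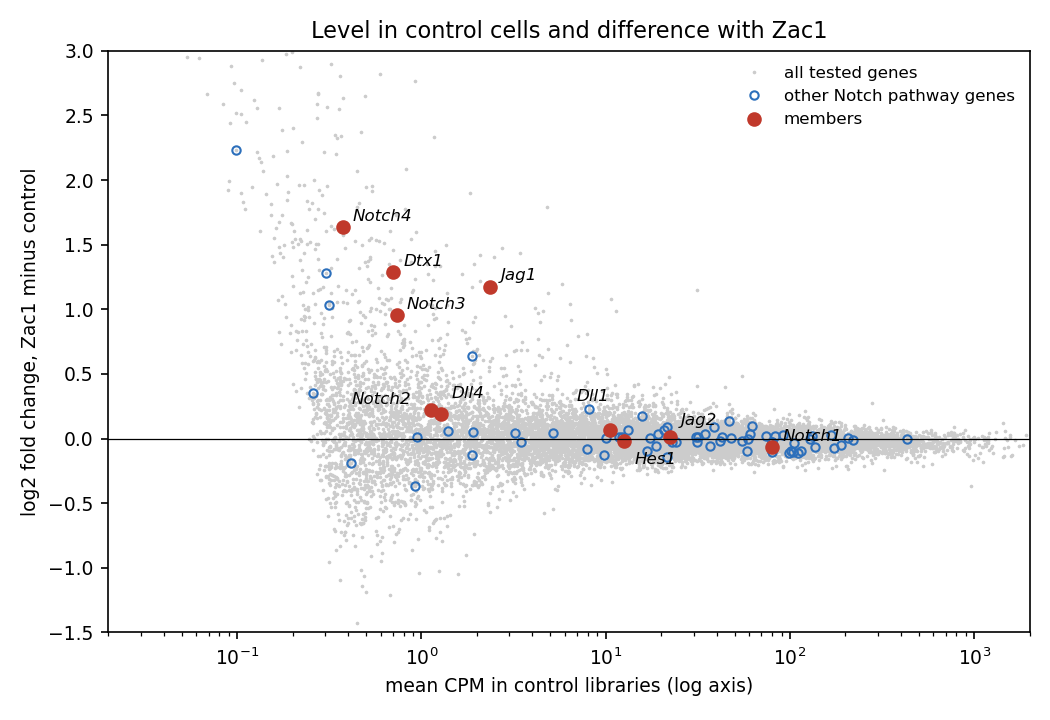
Mean CPM in control libraries (horizontal log axis) against the log2 fold change, Zac1 minus control (vertical axis, shown from -1.5 to 3), for all tested genes within the axes (grey), 67 other Notch pathway genes (blue rings) and the 10 members (red). Notch4, Dtx1 and Jag1 lie at control means of 0.373, 0.698 and 2.35 CPM, and the 4 members above 10 CPM lie within 0.07 of 0.

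For each called member the 3 tested genes with the most similar profile were taken, by the root mean square difference of centred log2 CPM over the 8 libraries, among 12213 genes averaging 50 counts or more. They describe the shape of the values only. Such genes were chosen over the same 8 libraries that gave the calls, so calls like the member's own follow from the choice. Nearest to Jag1 were Chrna4, a nicotinic receptor subunit (0.158), Nefh, a neurofilament chain (0.158), and Itpripl1 (0.165). Nearest to Notch4 were Rab11fip5 (0.239), Fibcd1 (0.246) and 8430427H17Rik (0.261). Dtx1 was closest to Osgin1 (0.222), Radil (0.247) and Rab11fip4 (0.294). All 9 were themselves called higher, with log2 fold changes of 0.99 to 1.79. For Hes1 the nearest were Wiz, Mpp2 and Per2 (0.0304 to 0.036), for Notch1 Trim8, Prpf40b and 1700049G17Rik (0.0314 to 0.0322) and for Notch2 Mlf1, Ltbp2 and Kif9 (0.0848 to 0.0897), none of them called.

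**Figure D5:**
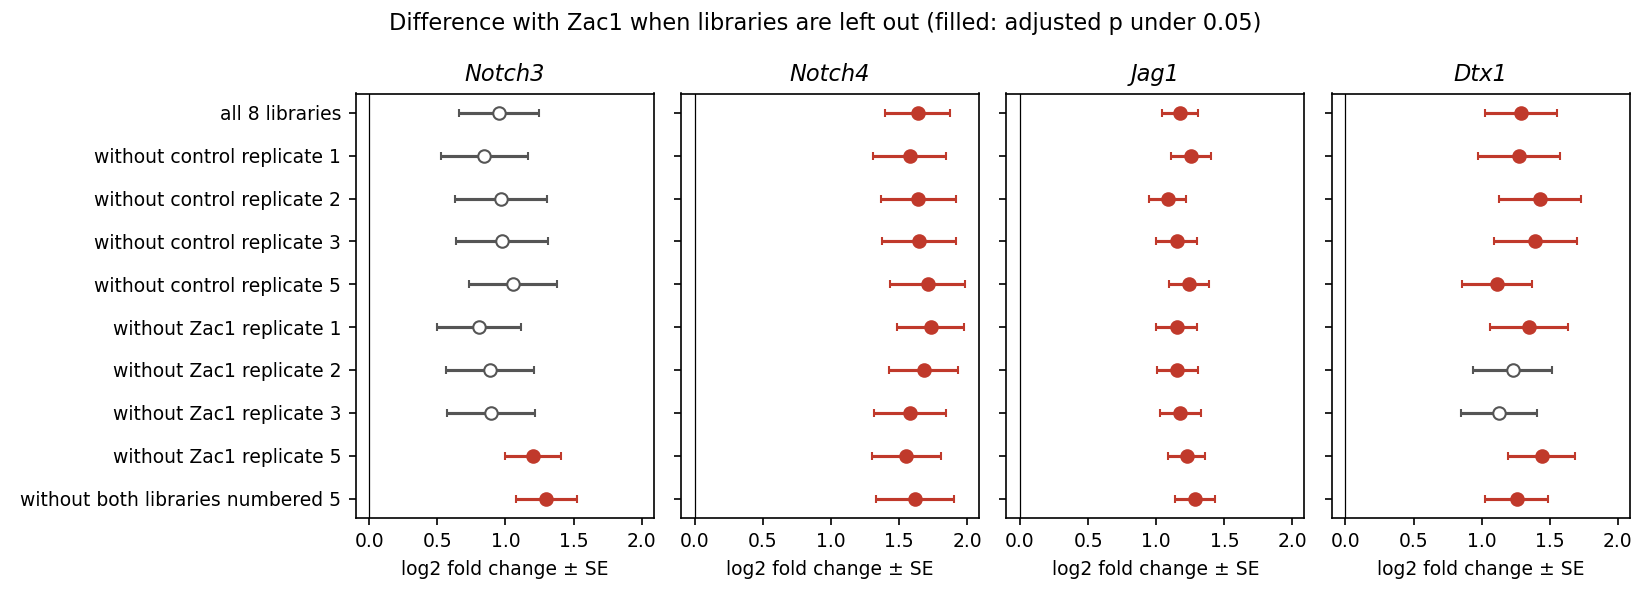
Log2 fold change ± SE (horizontal axes) of Notch3, Notch4, Jag1 and Dtx1 with all 8 libraries and with 1 library, or both numbered 5, left out; filled red points have an adjusted p under 0.05. Notch4 and Jag1 stay red in every row, Dtx1 is open without Zac1 replicate 2 or 3, and Notch3 is red only where Zac1 replicate 5 is left out, alone or with its control counterpart.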

How the data were processed

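The deposited file holds the authors' raw read counts of 23100 genes for each of 8 libraries. Per the submitters' processing notes, the tools were HTSeq 0.6.1p1, Bowtie2 2.2.8, TopHat2 2.1.1, FastQC and bcl2fastq 2.17, and the build was mm9. The library kit was strand-specific for mRNA, per the labels' protocols. The sources used here do not give the gene annotation or whether counting used strand, so reads of overlapping genes on opposite strands are uncertain.

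Counts were tested with edgeR 4.0.16 in R 4.3.3: filterByExpr by group (minimum count 10, about 0.287 CPM), TMM scaling and the robust quasi-likelihood F test, with an intercept and the group. Adjusted p is Benjamini-Hochberg over the 14331 tested genes, with a threshold of 0.05. SE is the fold change over the root of its F statistic, and 95% intervals use the fit's degrees of freedom. CPM uses TMM-scaled totals. Steps were tested on simulated counts drawn independently for each library. These held no effect shared by replicate number, so they cannot show how the fit behaves where there is one. Alternatives were DESeq2 1.42.0, limma-voom (limma 3.58.1), RLE size factors (a median-ratio scaling), library totals, 2 other filters, a replicate block and left-out libraries. Exact permutation tests covered all 70 assignments. For Plagl1 this gave p = 0.0286, the smallest possible (exact, two-sided).

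The members and lists were chosen with earlier results of these data known. Genes named are Plagl1, the members, called genes and the 2 most abundant genes of each pathway role, and the 3 genes most like a called member, Notch1, Notch2 or Hes1. From the marker lists the rule names the most abundant genes and those at 0; other markers were named after their values were seen. Further cell types checked were alpha (1244 to 1681 CPM summed in control, 1337 to 2128 with Zac1), delta (0.0877 to 0.502, 0.143 to 0.289), PP (0 to 0.0568, 0 to 0.0851), acinar (13.4 to 18.8, 14.9 to 18.6), duct (148 to 189, 128 to 179) and immune cells (6.48 to 7.46, 5.30 to 7.80). Floors of 3 counts cover counting error only: without molecular identifiers, reads are not independent molecules.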

Additional observations from a re-analysis of the deposited data

Results flagged for a closer look

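Among the 20 sets of 4 values (10 members in 2 groups), 1 held a library far from the others by Dixon's criterion, which chance alone meets in about 1 of 20 groups. It was Hes1 in Zac1 replicate 5, at 10.3 CPM against 12.9 to 13.3 CPM in the other Zac1 libraries. Control replicate 5 was also the lowest of its group for Hes1, at 11.2 CPM.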

How the results depend on the processing

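Of 158 values of the members under the alternatives, 143 kept their direction and side of the threshold, 2 lost a call (Dtx1), 3 gained one (Notch3) and 10 changed sign. The sign changes were all in members near 0. Hes1 gave 0.000526 with library totals, 0.019 without both libraries numbered 5 and -0.060 to 0.068 with 1 library left out; Jag2 gave -0.014 in limma-voom, -0.00099 with the replicate block and -0.098 to 0.16 with 1 library left out; Dll1 gave -0.015 to 0.14 with 1 library left out. The count of members called was 2 to 4 throughout. It was 2 with the filter of at least 1 CPM in 4 libraries, which left 8 members and neither Notch3 nor Notch4. Calls over all genes numbered 169 with that filter, 628 with the replicate block and 262 to 362 with 1 library left out, against 313. Calls among the other pathway genes, 0 of 67, became 1 in DESeq2, 1 in limma-voom, 2 with library totals, 2 with no filter, 1 without both libraries numbered 5, 0 to 1 with 1 library left out, and 3 with the replicate block. The cause was not tested, other than that the stricter filter tests fewer genes.

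In the sample titles, same-numbered libraries of the 2 groups share only the number. Their deviations from the group means over 12615 genes correlated at 0.446, 0.0663, 0.288 and 0.48 for numbers 1, 2, 3 and 5. Of the 8 libraries, 7 correlated best with their own number. Number 2 was under 0.1, so the numbers were not taken as pairs. Whether same-numbered libraries were handled together was not tested, so the main fit may ignore a pairing. With the replicate block, Notch3 passed (log2 0.93, edgeR adjusted p = 0.0391), so 4 members were called. Of all tested genes 3.57% were then called higher and 0.809% (116 genes, against 5) lower. The 3 other pathway genes called were Ccnd1, Mfap2 and Mfng, of which Ccnd1 and Mfap2 passed the filter through the Zac1 group. At the lowest levels depth limits the values: 11 to 13 counts of Notch4 per control library.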
